A study of Homo sapiens with 42 samples.

Results

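RS411 is an established human cell line grown from a B-cell precursor acute lymphoblastic leukaemia that carries the KMT2A-AFF1 fusion gene. Its transcriptome was compared between cells left untreated and cells given 1 IU/ml of L-asparaginase for 4 h, with 3 libraries in each group, so that n = 3 per group throughout. These 6 libraries were all those labelled RS411 among the 42 of the series, which holds 7 leukaemia lines in 14 groups, an untreated and a treated one per line, and all 50650 genes of the RS411 count table were taken. The other 6 lines, to which the response was compared, are Nalm6, SUPB15, REH and 697 of the B lineage and CEM and DND41 of the T lineage, given the same dose for the same time. The labels speak of 3 independent experiments per line, and untreated cells shared the growth medium, which was supplemented with serum, glutamine and antibiotics. RS411 is a single line, so the comparison describes this line and not KMT2A-rearranged leukaemia at large. The libraries are named by the letters A, B and C of the count table.

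L-asparaginase is an enzyme drug used against acute lymphoblastic leukaemia that hydrolyses asparagine, and more slowly glutamine, outside the cell. When an amino acid runs short, uncharged transfer RNA activates the kinase GCN2, which phosphorylates the initiation factor eIF2. General translation then falls while the transcription factor ATF4 is translated and, with C/EBP partners, turns on genes for amino acid synthesis, uptake and transfer RNA charging. This pathway is called the integrated stress response. Shortage of amino acids also lowers the activity of the growth kinase complex mTORC1.

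The libraries held between 26.69 M and 55.09 M counts, and untreated A was the shallowest. Untreated A also stood apart in composition: the SD over genes of its log2 difference from the mean of its group mates was 0.507, against 0.144 to 0.326 in the other 5 libraries. Results were therefore also computed without it. The share of counts in 6 small noncoding RNAs was 7.23%, 13.5% and 7.83% in untreated A, B and C and 12.7%, 12.5% and 16.5% after treatment. Its mean was 9.51% ± 3.44 (SD, n = 3) untreated and 13.9% ± 2.25 (SD, n = 3) treated, a difference of 4.41 percentage points (exact two-sided permutation test, p = 0.3). The groups overlapped, with untreated B above treated A and B. With 3 libraries against 3 this test cannot go below 0.1, and it leaves the difference undecided. B-lineage markers summed to 2100 to 2320 counts-per-million (CPM) untreated and 2240 to 2330 treated, with 11 of 12 markers at 1 CPM or more in every library. T-lineage markers summed to 198 to 332 and 263 to 369 CPM, mostly from LCK, ZAP70 and TRAC, while CD3D, CD3E, CD3G, CD2, CD5 and CD7 were too low to test. Stromal markers summed to 18.5 to 44.7 and 16.5 to 50.8 CPM and the neural marker list, which rested on SYT1, to 28.4 to 64.1 and 27.2 to 51.8 CPM, both highest in the A libraries of either group. Erythroid markers stayed between 1.17 and 2.01 CPM. L-asparaginase B alone held 3 genes (SCD, SH2D1A and TRBC2), at up to 1.49 CPM, and in it CD3D, at 0 in untreated A and L-asparaginase A, stood at 0.938 CPM.

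L-asparaginase changed the level of 2088 of 16346 tested genes in RS411, which is 12.8% (edgeR quasi-likelihood test, Benjamini-Hochberg adjusted p under 0.05). Of these, 1239 genes (7.58% of those tested) were higher and 849 (5.19%) lower after treatment, and 361 rose and 243 fell at least 2-fold. In 36.5% of tested genes, called or not, the CPM values of the groups did not overlap. The median log2 fold change of all tested genes was -0.0195. The count depended on the libraries used. Without untreated A, 4526 of 17055 genes (26.5%) changed, 2627 higher (15.4%) and 1899 lower (11.1%), among them 2087 of the 2088. Without untreated B or C it was 1098 or 1163. Leaving out treated A, B or C gave 942, 435 or 272. The counts of list members given below for these smaller fits are to be read against these totals. Of the 2084 changed genes with an intact symbol, 266 passed in all 6 of these smaller fits, and such a call is called stable in what follows.

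**Figure D1:**
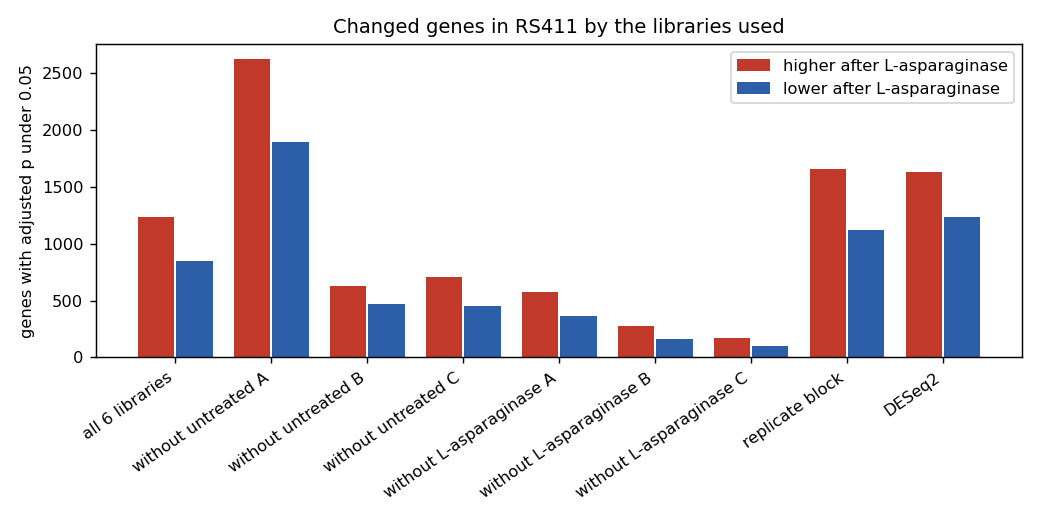
Number of genes (y axis) with an adjusted p under 0.05 in RS411, higher (red) and lower (blue) after L-asparaginase, by the libraries or the model used (x axis). Leaving out untreated A raised the count to 4526 genes and leaving out L-asparaginase C lowered it to 272, while higher genes outnumbered lower ones in each setting drawn.

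Of 19 tested regulators of the integrated stress response, 10 were higher and 1 lower (57.9% called against 12.8% of all tested genes), with a median log2 fold change of 0.825. SESN2, a sestrin that restrains mTORC1, stood at 9.25, 10.96 and 11.9 CPM in untreated A, B and C and at 112, 96.2 and 98.9 CPM in treated A, B and C. Its log2 fold change was 3.25 ± 0.14 (SE, adjusted p = 4.7e-05). DDIT3, which encodes the C/EBP-family factor CHOP, went from 16.9, 16.7 and 19.1 to 119, 130 and 124 CPM (2.83 ± 0.11, adjusted p = 4.7e-05). The groups were far apart for both genes, and the 3 treated libraries lay close together.

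CHAC1, a glutathione-degrading enzyme, went from 3.34, 6.70 and 7.59 to 39.1, 40.3 and 36.5 CPM (2.70 ± 0.27, adjusted p = 0.002). TRIB3, a pseudokinase induced by ATF4 and CHOP, went from 33.7, 29.9 and 29.7 to 184, 119 and 137 CPM (2.24 ± 0.17, adjusted p = 0.00078). ATF3, a stress-induced transcription factor, went from 7.89, 8.72 and 10.7 to 38.1, 43.3 and 42.7 CPM (2.18 ± 0.15, adjusted p = 0.00058). Untreated A was the lowest library for CHAC1 and the highest for TRIB3, with no overlap between groups in either. DDIT4, another inhibitor of mTORC1, rose from between 67.0 and 76.8 CPM to between 187 and 288 CPM (1.67 ± 0.17). The rises of these 6 regulators were stable.

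The ATF4 transcript itself, whose protein is controlled by translation, measured 585, 443 and 404 CPM untreated and 510, 517 and 504 CPM treated (0.10 ± 0.15, adjusted p = 0.71). Without untreated A, its highest untreated library, the value was 0.27 with an adjusted p of 0.048. EIF2AK4, which encodes GCN2, was the single member that fell, from between 65.3 and 89.0 CPM to between 44.5 and 54.1 CPM (-0.64 ± 0.15, adjusted p = 0.028). Its call was lost without L-asparaginase B (adjusted p = 0.12) or C (0.14). Over the 6 smaller fits, between 7 (without L-asparaginase C) and 13 (without untreated A) regulators were higher.

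**Figure D2:**
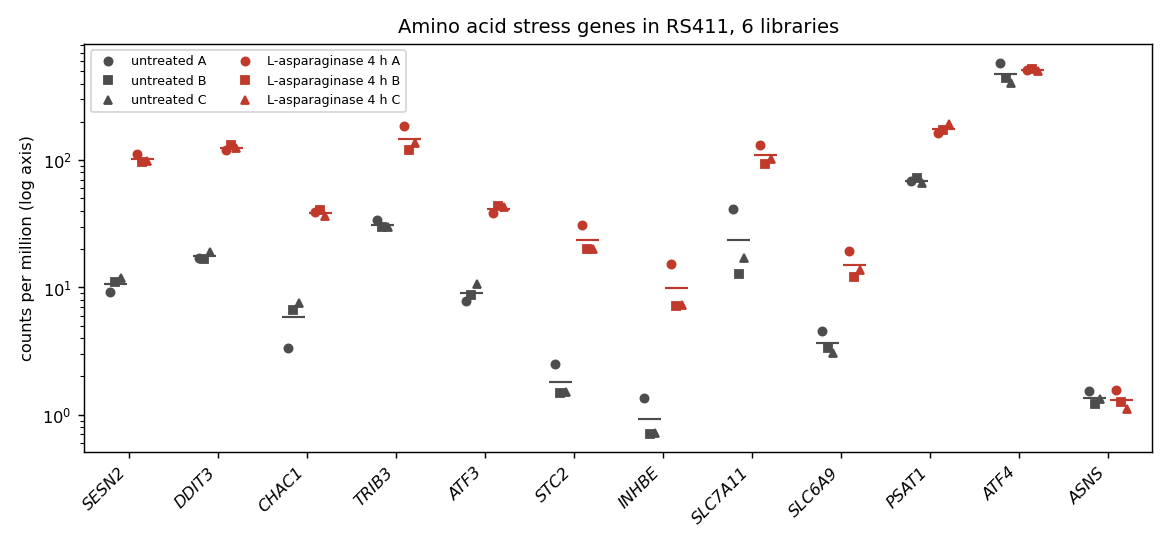
CPM (y axis, log scale) of 12 amino acid stress genes (x axis) in each RS411 library, with grey untreated and red treated symbols shaped by letter and a bar at each group mean. SESN2 and DDIT3 stood at 96.2 CPM or more in every treated library and at 19.1 CPM or less untreated, while ASNS lay between 1.102 and 1.555 CPM in all 6.

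Promoters were searched for the core of the C/EBP-ATF response element, the site through which ATF4 and its partners act, as TGATGNAA on both strands, from 250 bases before to 50 after the RefSeq gene start (GRCh38.p14). Of 22 named regulators, amino acid enzymes and transporters, 19 matched a RefSeq promoter by symbol and 5 held the motif: CHAC1, ATF3, GOT1, SLC3A2 and ASNS. The motif was present in 4.46% of 27305 genes with such a window, in 2.7% of those tested in RS411, in 4.29% of the 980 higher and 1.27% of the 628 lower genes with a window, and in 7.25% of the 262 that rose at least 2-fold. The second motif searched, the cyclic AMP response element TGACGTCA, was in none of the 19 and in 3.75% of tested genes. These are matches of letters, not measured binding. The windows around the match are shown for 3 genes that rose and for ASNS, with the match in capitals, because ASNS holds the motif and had no call. TTGCATCA is the motif read on the other strand.
CHAC1, chr15:40953236-40953295, plus strand: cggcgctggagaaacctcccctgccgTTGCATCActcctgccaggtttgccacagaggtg
ATF3, chr1:212565190-212565249, plus strand: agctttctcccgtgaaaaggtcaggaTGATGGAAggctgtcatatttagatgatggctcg
GOT1, chr10:99430789-99430848, minus strand: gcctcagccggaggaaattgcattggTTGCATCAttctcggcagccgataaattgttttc
ASNS, chr7:97872443-97872502, minus strand: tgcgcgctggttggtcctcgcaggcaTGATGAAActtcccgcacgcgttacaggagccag

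ASNS encodes asparagine synthetase, the enzyme that makes asparagine from aspartate. Its level was 1.542, 1.214 and 1.33 CPM in untreated A, B and C and 1.555, 1.27 and 1.102 CPM in treated A, B and C. The groups overlapped, and the log2 fold change was -0.05 ± 0.26 (adjusted p = 0.92). ASNS rested on 337 counts over the 6 libraries together, and at the lowest depth, that of untreated A, 1 CPM is 26.7 counts. The motif in its promoter, shown above, is the one with the match at base -68 from the start.

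Other enzymes of amino acid synthesis moved in both directions. Of 23 tested, 7 rose and 3 fell (43.5%), with a median log2 fold change of 0.0344, and without any 1 treated library or untreated B none was lower. The transaminase GPT2 went from 127, 92.1 and 100.8 to 304, 293 and 303 CPM (1.49 ± 0.14, adjusted p = 0.0015). PCK2, the mitochondrial enzyme that makes phosphoenolpyruvate, went from 49.5, 67.5 and 64.3 to 153, 167 and 178 CPM (1.46 ± 0.14, adjusted p = 0.0018). PSAT1, the transaminase of serine synthesis, went from 68.5, 72.5 and 65.7 to 162, 173 and 193 CPM (1.35 ± 0.11, adjusted p = 0.001). GOT1, the aspartate transaminase of the cytosol, rose from between 37.5 and 47.9 CPM to between 78.1 and 88.4 CPM (1.04 ± 0.13), and these 4 rises were stable. PHGDH, the first enzyme of serine synthesis, had a smaller rise (0.56 ± 0.12, adjusted p = 0.02), which passed only without untreated A or B and reached an adjusted p of 0.12 without L-asparaginase B or C.

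GLUL, which makes glutamine from glutamate, was among the members that fell, from between 374 and 415 CPM to between 268 and 293 CPM (-0.49 ± 0.11). ALDH18A1 of proline synthesis (-0.50) and BCAT2, a branched-chain transaminase (-0.83), fell as well. The calls of these 3 were each lost without any 1 treated library and without untreated B, and that of ALDH18A1 and BCAT2 also without untreated C. In the folate pathway 2 of 12 tested members rose and 1 fell (25%). The mitochondrial enzyme MTHFD2 went from 354, 366 and 362 to 694, 733 and 787 CPM (1.03 ± 0.11, adjusted p = 0.0021), and MTHFD1L rose by 0.75, both stably. GLDC, which cleaves glycine, fell (-0.68 ± 0.13), a call lost without L-asparaginase B or C. Without untreated A, 3 folate members fell.

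Of 19 tested amino acid transporters, 11 were higher and 1 lower (63.2% called), with a median log2 fold change of 0.589. The cystine importer SLC7A11 measured 41.3, 12.9 and 17.0 CPM untreated and 131, 93.9 and 102 CPM treated (2.21 ± 0.40, adjusted p = 0.012). Untreated A was more than 2-fold above its group mates, and the call reached an adjusted p of 0.055 without L-asparaginase C. The glycine transporter SLC6A9 went from 4.59, 3.36 and 3.03 to 19.3, 12.2 and 13.6 CPM (2.05 ± 0.24, adjusted p = 0.003). SLC3A2, the shared heavy chain of several exchangers, went from 102, 149 and 140.2 to 346, 369 and 378 CPM (1.48 ± 0.15, adjusted p = 0.002). The rises of SLC6A9 and SLC3A2 were stable. SLC43A2 rose by 0.73 and the glutamine transporter SLC38A5 fell by 0.59 on the log2 scale, and both calls were lost without any 1 treated library and without untreated C, that of SLC38A5 also without untreated B. The count of higher transporters ranged from 2 without L-asparaginase C to 11 without untreated A.

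Of 20 cytosolic aminoacyl-tRNA synthetases, which charge transfer RNA, 5 rose and none fell (25% called, median log2 fold change 0.0835). CARS, for cysteine, went from 60.5, 53.9 and 54.0 to 136, 145 and 160 CPM (1.39 ± 0.11, adjusted p = 0.00087). MARS, for methionine, went from 189.5, 182 and 170.3 to 328, 324 and 335 CPM (0.86 ± 0.10, adjusted p = 0.003), and these 2 rises were stable. GARS, for glycine, rose by 0.86 and AARS, for alanine, by 0.68. Both of these calls were lost without L-asparaginase B or C, and that of GARS also without untreated B or C. Without untreated A, 9 synthetases were higher, and without L-asparaginase B or C the count was 2.

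Secreted factors of stressed cells gave some of the widest rises. Of 5 tested, 3 were higher (60% against 7.58% higher among all tested genes), and FGF21 and GDF15 were too low to test. STC2, stanniocalcin, went from 2.50, 1.48 and 1.497 to 30.7, 20.1 and 19.9 CPM (3.72 ± 0.28, adjusted p = 0.00078). INHBE, an inhibin subunit, went from 1.36, 0.71 and 0.721 to 15.2, 7.11 and 7.27 CPM (3.45 ± 0.41, adjusted p = 0.003). In both genes the A library was the highest of each group, and no untreated library came near a treated one. VEGFA, the vascular growth factor, rose 2.04-fold, but its call held only without untreated A among the 6 smaller fits. Without untreated A all 5 tested factors were higher.

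CLEC17A, a lectin receptor of B cells, had the widest rise among genes averaging a log2 CPM of 1 or more. It went from 0.698, 0.523 and 0.554 to 7.51, 10.6 and 12.3 CPM (4.12 ± 0.27, adjusted p = 0.00042). ADAMTSL2, a matrix protein, went from 1.43, 0.934 and 0.684 to 7.51, 8.21 and 9.01 CPM (3.06 ± 0.28). JAG2, a ligand of Notch receptors, went from 1.18, 0.784 and 0.813 to 6.92, 5.65 and 6.64 CPM (2.81 ± 0.24). PSD2 (2.82), the protease TMPRSS3 (2.73), the sulfotransferase-family gene SULT4A1 (2.73) and SLC12A8 of the cation-chloride cotransporter family (2.65) completed the 12 largest rises together with 5 genes named above. All 12 of these rises were stable.

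Of 23 tested genes of mTORC1 and its amino acid sensors, TFEB was higher and MTOR lower, a share of 8.7% against 12.8% of all tested genes, and without untreated A 3 were higher and 2 lower. TFEB, the master regulator of lysosome genes, went from 15.1, 16.7 and 17.7 to 45.1, 36.7 and 38.6 CPM (1.28 ± 0.13, adjusted p = 0.002), stably. MTOR, the kinase, fell by 0.56 on the log2 scale, a call lost without untreated B or C and without L-asparaginase B or C. Of 25 autophagy and lysosome genes, TFEB included, 6 were higher and 1 lower (28%), but TFEB was the one rise left in every smaller fit other than that without untreated A, where 9 were higher. GABARAPL1, a member of the ATG8 family, rose by 0.86 and the lysosomal protease CTSD by 0.84, while GABARAPL2 fell by 0.52, all lost in the other 5 smaller fits.

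**Figure D3:**
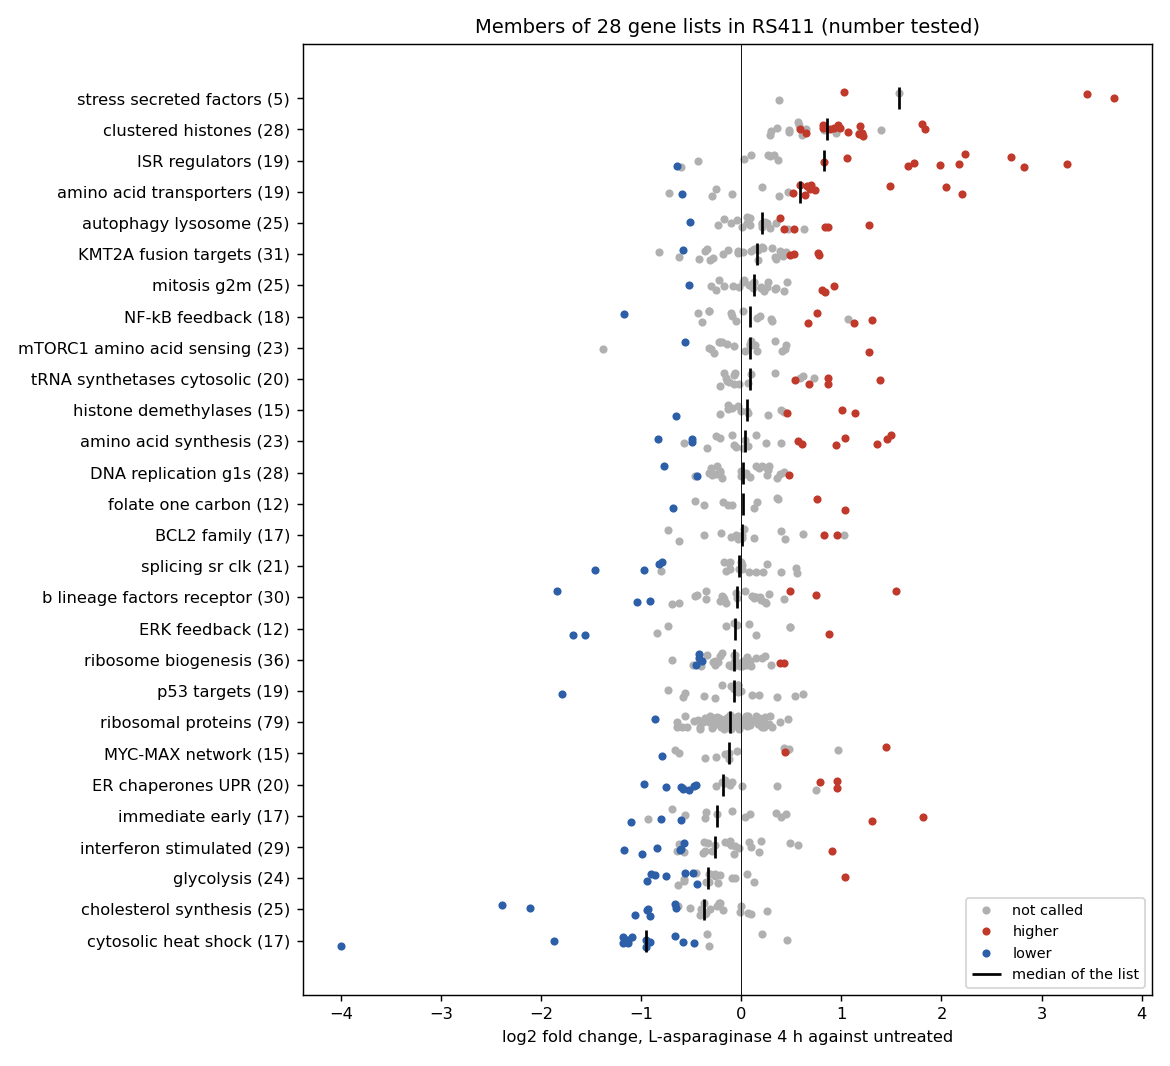
Log2 fold changes (x axis) of every tested member of 28 gene lists (y axis, number tested in parentheses) in RS411, with called members in red or blue, others in grey and a black bar at each list's median. Heat shock genes sat lowest, with a median of -0.951, and secreted stress factors highest, with a median of 1.58.

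Cytosolic heat shock genes encode chaperones that fold new and damaged proteins. Of 17 tested, 13 were lower and none higher, a share of 76.5% against 5.19% of all tested genes, with a median log2 fold change of -0.951. HSPA8, the constitutive HSP70 chaperone, went from 2487, 2214 and 2544 to 686, 671 and 621 CPM (-1.87 ± 0.13, adjusted p = 0.00062). HSPA1A, a stress-inducible HSP70, went from 9.47, 4.24 and 5.41 to 0.734, 0.352 and 0.11 CPM (-4.00 ± 0.56, adjusted p = 0.0053), the largest fall among genes averaging a log2 CPM of 1 or more. Both falls were stable. HSPA1B differs little from HSPA1A in sequence, so reads may be split between them; it measured 11.1, 13.6 and 27.1 CPM untreated and 7.45, 7.50 and 7.85 CPM treated (-1.19 ± 0.31, adjusted p = 0.04). The mitochondrial co-chaperonin HSPE1 measured 38.6, 76.6 and 71.2 CPM untreated and 26.2, 31.1 and 24.9 CPM treated (-1.18 ± 0.24). The calls of HSPA1B and HSPE1 were lost in every smaller fit but that without untreated A, and between 6 (without L-asparaginase C) and 13 members were lower over these fits. HSPA8P1, a processed copy of HSPA8 whose reads cannot be told from it with certainty, fell by 2.05 on the log2 scale.

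Genes of the endoplasmic reticulum divided. Of 20 tested, 7 were lower and 3 higher (50% called). HSPA5, the chaperone BiP, went from 106, 119.9 and 113 to 57.4, 55.9 and 58.9 CPM (-0.98 ± 0.10, adjusted p = 0.002). XBP1, a transcription factor of the unfolded protein response, went from 300, 363 and 318 to 577, 654 and 674 CPM (0.96 ± 0.13, adjusted p = 0.0045). HERPUD1, which takes part in degrading misfolded proteins, rose by 0.96, and these 3 calls were stable. EDEM1, of the same degradation route, rose by 0.78, a call lost without L-asparaginase B or C. A single member was lower without any 1 treated library.

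Of 25 tested genes of sterol synthesis and uptake, 8 were lower and none higher (32% against 5.19% lower among all tested genes), with a median log2 fold change of -0.376. INSIG1, which retains the sterol sensor in the endoplasmic reticulum and is itself a target of the sterol factor SREBP2, went from 218, 265 and 278 to 51.9, 47.3 and 46.0 CPM (-2.39 ± 0.13, adjusted p = 0.00025). The synthesis enzymes SQLE (-1.06 ± 0.12) and LSS (-0.95 ± 0.12) each lost near a factor of 2 in CPM. The falls of these 3 genes were stable, and the number of lower members ran from 4 without L-asparaginase C to 15 without untreated A.

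In glycolysis 7 of 24 tested members were lower and 1 higher (33.3% called), with a median of -0.339. The lactate transporter SLC16A1 went from 262, 274 and 269 to 134, 142 and 143 CPM (-0.94 ± 0.10, adjusted p = 0.002), and PFKP, a phosphofructokinase, from 148, 153 and 146 to 74.7, 87.9 and 82.2 CPM (-0.87 ± 0.11, adjusted p = 0.0034). The muscle-type phosphofructokinase PFKM fell by 0.90 on the log2 scale, with an adjusted p of 0.065 without L-asparaginase C. The glucose transporter SLC2A3 rose from 21.7, 16.6 and 19.0 to 40.0, 38.7 and 39.0 CPM (1.04 ± 0.13, adjusted p = 0.0038). The calls of SLC16A1, PFKP and SLC2A3 were stable. Lower members numbered 2 without L-asparaginase C and 14 without untreated A.

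**Figure D4:**
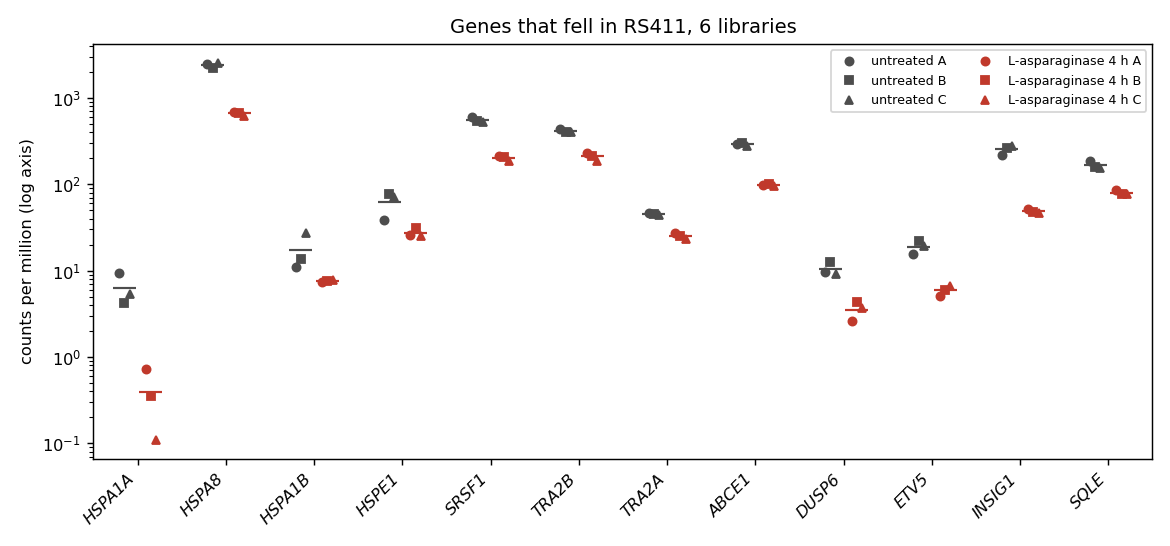
CPM (y axis, log scale) of 12 genes that fell (x axis) in each RS411 library, with grey untreated and red treated symbols shaped by letter and a bar at each group mean. HSPA8 dropped from 2214 CPM or more to 686 CPM or less, and in all 12 genes every treated library lay below every untreated one. The 12 genes were picked among those called lower, so separation of their groups is no separate result. Over all tested genes, called or not, 36.5% had groups that did not overlap.

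Splicing factors of the SR family bind exonic enhancers, and 4 of 21 tested members of the splicing list were lower and none higher (19%). SRSF1 went from 597, 540 and 525 to 210, 207 and 185 CPM (-1.47 ± 0.12, adjusted p = 0.00078). The related TRA2B went from 432, 398 and 404 to 232, 211 and 187 CPM (-0.97 ± 0.12, adjusted p = 0.0036) and TRA2A from 46.1, 44.7 and 43.9 to 27.3, 25.2 and 23.4 CPM (-0.83 ± 0.11, adjusted p = 0.0046). In all 3 genes the treated libraries lay well below the untreated ones, and the calls were stable. The kinase DYRK3 fell by 0.80 on the log2 scale, a call lost in each smaller fit but that without untreated A. The other members, the CLK kinases among them, had no call. Without untreated A, 3 members of the list were higher and 5 lower.

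The list of ERK feedback genes, not all of which damp the kinase itself, gave 2 falls and 1 rise among 12 tested (25%). ETV5, a transcription factor, went from 15.8, 21.8 and 19.1 to 5.02, 5.98 and 6.67 CPM (-1.68 ± 0.18, adjusted p = 0.0021), stably. DUSP6, the phosphatase that acts on ERK, went from 9.65, 12.8 and 9.05 to 2.61, 4.36 and 3.66 CPM (-1.56 ± 0.24, adjusted p = 0.0069), and reached an adjusted p of 0.05 without L-asparaginase C. DUSP10, which acts on the stress kinases JNK and p38, rose by 0.87, a call that held only without untreated A among the smaller fits. Without that library 4 members were lower.

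Immediate early genes did not move one way: 2 of 17 tested rose and 3 fell (29.4%). KLF6 went from 17.3, 21.9 and 22.3 to 46.5, 51.4 and 55.0 CPM (1.31 ± 0.14, adjusted p = 0.0021), stably. JUN measured 1.65, 4.82 and 3.88 CPM untreated and 6.16, 15.6 and 15.2 CPM treated (1.81 ± 0.44, adjusted p = 0.032), so that the A library was the lowest of each group. With the letter as a block its adjusted p was 0.0011, and the call was lost without untreated B or C and without L-asparaginase B or C. KLF10 fell by 0.80 and IER2 by 1.10 on the log2 scale. FOSL2, named here after its value was seen, fell by 0.60. KLF10 reached an adjusted p of 0.05 without L-asparaginase C, the call of IER2 held only without untreated A, and 6 members were lower without untreated A against 0 without L-asparaginase C.

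Genes of NF-kB feedback gave 4 rises and 1 fall among 18 tested (27.8%). RELB, a subunit of the noncanonical pathway, went from 6.50, 9.001 and 9.31 to 20.8, 18.4 and 22.2 CPM (1.30 ± 0.17, adjusted p = 0.0046), stably. TNFAIP3, which encodes the inhibitor A20, went from 6.13, 5.17 and 4.62 to 13.8, 9.77 and 11.1 CPM (1.13 ± 0.19, adjusted p = 0.0098), and NFKBIB, an inhibitor of the IkB family, rose by 0.76. Without L-asparaginase C these 2 reached adjusted p-values of 0.057 and 0.05. BIRC2, named after its value was seen, rose by 0.66, and 1 member was higher without L-asparaginase C. TNF, the cytokine, fell from between 3.75 and 7.32 CPM to between 2.19 and 2.44 CPM (-1.17 ± 0.27), a call lost without untreated B and without any 1 treated library.

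Among 29 interferon-stimulated genes 6 were lower and 1 higher (24.1%). TRIM25, a ubiquitin ligase of viral RNA sensing, went from 94.6, 124 and 127 to 49.2, 53.6 and 50.1 CPM (-1.18 ± 0.14, adjusted p = 0.0028). OAS2, an RNA-sensing synthetase (-0.99 ± 0.12), and STAT2, a factor of the interferon response (-0.85 ± 0.12), also fell, and these 3 falls were stable. IRF7 rose by 0.91, a call lost without untreated C and without any 1 treated library. With the letter as a block 9 members were lower, and without untreated B or any 1 treated library 3 were.

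Clustered histone genes, whose transcripts normally lack a poly(A) tail, gave 15 rises and no fall among 28 tested (53.6%), with a positive sign in all 28 and a median log2 fold change of 0.854. HIST1H2AL went from 429.6, 518 and 520.2 to 1004, 1149 and 1258 CPM (1.22 ± 0.14, adjusted p = 0.003), stably. HIST1H2BJ went from 325, 833 and 813 to 1998, 2348 and 2672 CPM (1.83 ± 0.33, adjusted p = 0.012) and HIST1H3H from 284.5, 877 and 772 to 2049, 2255 and 2436 CPM (1.80 ± 0.36, adjusted p = 0.017). Untreated A was the lowest library for these genes, far below its group mates for HIST1H2BJ and HIST1H3H. The calls of HIST1H2BJ, HIST1H3H and HIST2H2AA3 (1.21 ± 0.20) were lost without L-asparaginase B or C, and that of HIST1H3H also without L-asparaginase A. The number of higher members ran from 2 without L-asparaginase C to 23 without untreated A. Of 28 replication genes 1 rose and 2 fell (10.7%), and of 25 mitosis genes 3 rose and 1 fell (16%), shares near the 12.8% of all tested genes. MCM6 of the replicative helicase rose by 0.47, and the cyclin gene CCNE1 fell by 0.78 and the nuclease gene FEN1 by 0.45 on the log2 scale. The mitosis genes CENPA (0.92), AURKA (0.83) and CDC25C (0.80) rose and PTTG1 fell by 0.53, but none of these 7 calls was stable. With the letter as a block 5 mitosis genes were higher, and without untreated A 6 were higher and 2 lower, against 3 and 5 replication genes.

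Of 79 ribosomal protein genes, RPL17 alone changed (-0.87 ± 0.23, adjusted p = 0.046), which is 1.27% against 12.8% of all tested genes, and the list median was -0.119. Of 36 ribosome biogenesis genes 2 rose and 4 fell (16.7%), all by less than 0.5 in log2 units, and none of these calls, nor that of RPL17, was stable. Without untreated A, 4 ribosomal protein genes were lower, and 3 biogenesis genes were higher and 6 lower.

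Targets of KMT2A fusion proteins, among them the HOXA cluster and its cofactor MEIS1, are held high in this leukaemia. All 31 members of the list were tested, and 4 were higher and 1 lower, a share of 16.1% near the 12.8% of all tested genes. FLT3, the receptor kinase, went from 154, 140.5 and 139.8 to 268, 230.1 and 245 CPM (0.77 ± 0.11, adjusted p = 0.0056), stably. LMO2, a transcriptional bridging factor, went from 33.4, 34.6 and 36.6 to 55.0, 57.9 and 65.5 CPM (0.77 ± 0.11, adjusted p = 0.0062, and 0.053 without L-asparaginase C). MYB rose by 0.52 and HOXA5 by 0.49, while PROM1, which encodes the surface protein CD133, fell by 0.59 on the log2 scale. MYB was lost in 4 of the 6 smaller fits, HOXA5 in 5 and also with the letter as a block (adjusted p = 0.051), and PROM1 without any 1 of the 3 treated libraries.

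HOXA9 measured 48.7, 38.4 and 37.5 CPM untreated and 50.9, 54.3 and 58.7 CPM treated (0.40 ± 0.13, adjusted p = 0.089). MEIS1 measured 189.9, 134 and 164 CPM untreated and 216, 198 and 206 CPM treated (0.34 ± 0.14, adjusted p = 0.14), and MEF2C 857, 557 and 641 against 843, 809 and 882 CPM (0.30 ± 0.17, adjusted p = 0.27). Untreated A was the highest untreated library in all 3. Without it these 3 genes passed, with log2 fold changes of 0.53, 0.47 and 0.50 and edgeR adjusted p-values of 0.0036, 0.011 and 0.0068. The list then had 12 higher and 2 lower members, in a fit where 15.4% of all tested genes were higher and 11.1% lower. HOXA10 had a value of 0.39 without a call (adjusted p = 0.15). The partner genes KMT2A (-0.19) and AFF1 (0.01) had no call.

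Of 30 B-lineage factors and receptor genes 3 rose and 3 fell (20%). IKZF3, the transcription factor Aiolos, went from 8.55, 5.27 and 6.13 to 21.0, 18.3 and 18.4 CPM (1.54 ± 0.20, adjusted p = 0.0041), and RAG2, of the recombinase that cuts immunoglobulin genes, from 54.5, 69.0 and 60.4 to 23.7, 32.4 and 33.1 CPM (-1.04 ± 0.16, adjusted p = 0.0072). Both calls were stable. The factors IRF4 (0.75) and PAX5 (0.49), named after their values were seen, rose as well. BLNK, the adaptor of the B-cell receptor, fell by 0.91 on the log2 scale, lost without L-asparaginase B or C. ID2, an inhibitor of E proteins, measured 42.8, 40.1 and 15.7 CPM untreated and 9.24, 10.1 and 8.15 CPM treated (-1.84 ± 0.34), and its call was lost without any 1 treated library. Without untreated A, 6 members were higher and 8 lower, and with the letter as a block 4 and 5.

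Among 17 tested genes of the BCL2 family and death receptors, which regulate cell death, 2 rose, a share of 11.8% near the 12.8% of all tested genes. They were PMAIP1, the BH3-only protein NOXA, from 134, 106 and 130 to 216, 220.3 and 221 CPM (0.83 ± 0.12, adjusted p = 0.0061), stably, and the pore former BAK1 from 10.5, 17.2 and 17.5 to 28.9, 29.4 and 29.9 CPM (0.96 ± 0.19, adjusted p = 0.017), lost without any 1 treated library. BCL2 itself measured 395 to 434 CPM untreated and 445 to 461 CPM treated (0.12 ± 0.10, adjusted p = 0.47). The BH3-only genes BIK (1.02 ± 0.35), BBC3 (0.62 ± 0.32) and BCL2L11 (-0.62 ± 0.20) had no call. With the letter as a block these 3 passed, with adjusted p-values of 0.0065, 0.047 and 0.024, and 4 members were higher and 2 lower. Of 19 targets of p53 (5.26% called) the RNA-binding protein gene ZMAT3 alone changed, from 46.0, 22.8 and 20.2 to 12.1, 7.35 and 6.17 CPM (-1.79 ± 0.36, adjusted p = 0.017), lost without L-asparaginase B or C. Without untreated A, 4 genes of the BCL2 list were higher and 1 lower, and 3 targets of p53 were lower.

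MYC measured 317, 200.5 and 292 CPM untreated and 386, 359 and 343 CPM treated (0.43 ± 0.17, adjusted p = 0.14), with no overlap, and passed without untreated A (0.56, adjusted p = 0.021). Of 15 genes of its network 2 rose and 1 fell (20%). TXNIP, an arrestin that limits glucose uptake, went from 38.9, 97.4 and 59.8 to 158, 183 and 194 CPM (1.45 ± 0.29, adjusted p = 0.017), lost without untreated C and without any 1 treated library. MLX rose by 0.43 and MNT fell by 0.79 on the log2 scale, neither stably, and without untreated A 5 members were higher and 3 lower. Of 15 histone demethylases 3 rose and 1 fell (26.7%): KDM4A went from 70.8, 61.5 and 67.4 to 128, 133 and 141 CPM (1.01 ± 0.11, adjusted p = 0.0021), stably, while KDM6B (1.14) and KDM4B (0.46) passed in no smaller fit but that without untreated A. KDM1A fell by 0.65 on the log2 scale, lost without L-asparaginase B or C, and 5 demethylases were higher without untreated A.

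Among the largest falls, those of HSPA1A, INSIG1, HSPA8P1, HSPA8, ID2 and ZMAT3 are given above. MTURN went from 6.24, 5.27 and 5.38 to 1.09, 1.76 and 1.46 CPM (-1.96 ± 0.24), RGMA, a guidance molecule, from 4.15, 4.11 and 3.79 to 1.35, 0.938 and 1.02 CPM (-1.87 ± 0.23), and CDK5R1, an activator of the kinase CDK5, from 8.77, 10.1 and 10.8 to 3.23, 2.77 and 2.29 CPM (-1.85 ± 0.19). FAM172A fell by 1.84 on the log2 scale, and so did CH17-373J23.1, whose untreated libraries ranged from 14.3 to 40.8 CPM. All of these except ID2, ZMAT3 and CH17-373J23.1 were stable.

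The response of RS411 was then tested against the mean response of the other 6 lines in 1 model of all 42 libraries. The test rests on the spread between libraries within groups, so variation of the response between the other lines does not enter its p-values. Of 20983 genes tested, 211 differed (1.01%): the response was higher in RS411 in 123 (0.586%) and lower in 88 (0.419%). The test could call no gene without a count in at least 1 line: 0 of 3860 such genes were called, so HOXA9, HOXA10 and MEIS1, which lacked a count in 4, 3 and 2 lines, are not covered by it. None of the 19 stress-response regulators tested here was called to differ. TRIB3 differed by -0.16 ± 0.44 (SE) from a mean that held 697 at 6.28, with the other 5 lines between 0.88 and 2.63 and RS411 at 2.225, and ATF3 differed by 1.12 ± 0.34 (adjusted p = 0.12).

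ASNS was one of the genes whose response was lower in RS411, with a difference of -1.32 ± 0.32 (adjusted p = 0.03) and a mean response of 1.26 in the other lines, from 0.29 in SUPB15 to 2.48 in CEM. That call was lost in 9 of 18 alternatives, among them each of those without 1 RS411 library except L-asparaginase A. Genes that fell in RS411 and whose mean response elsewhere lay between -0.19 and 0.66 were ETV5 (difference -1.68 ± 0.17, adjusted p = 1.6e-07), DUSP6 (-1.92 ± 0.21, adjusted p = 3.6e-07), the drug and nucleotide exporter ABCC4 (-1.47 ± 0.15, adjusted p = 1.5e-07), the ribosome recycling factor ABCE1 (-1.40 ± 0.17, adjusted p = 3.5e-06), SRSF1 (-1.40 ± 0.18, adjusted p = 6.9e-06) and GATM, the first enzyme of creatine synthesis (-1.81 ± 0.28, adjusted p = 0.00031). The differences of these 6 were called in all 18 alternatives, while the fall of GATM within RS411 was lost without untreated B or C and without L-asparaginase B or C. ABCE1 went from 294, 304 and 279.7 to 98.5, 99.5 and 95.4 CPM in RS411, stably, and ABCC4 from 54.1, 51.3 and 52.9 to 28.8, 26.4 and 23.9 CPM. SUPB15 came nearest to RS411 for ABCE1 and SRSF1, with log2 fold changes of -1.19 and -1.38, while the other 5 lines lay between -0.51 and 0.71 for these genes. TRA2B (-0.90), TRA2A (-1.01), TRIM25 (-0.98), SLC16A1 (-0.69) and HSPA8 (-1.01, adjusted p = 0.044) also had lower responses in RS411, and SRSF5 (0.93, adjusted p = 0.049), named after its value was seen, a higher one. HSPA8 also fell in CEM (-1.51), SUPB15 (-1.48), DND41 (-1.36) and 697 (-0.91), against -1.88 in RS411, with REH at -0.37 and Nalm6 at 0.38. SUPB15 came nearest for TRA2B (-0.76), TRA2A (-0.58) and SLC16A1 (-0.61), against -0.98, -0.84 and -0.95 in RS411. The rest lay between -0.19 and 0.19, 0.01 and 0.60, and -0.58 and -0.02. For TRIM25 DND41 came nearest (-0.75, against -1.19 in RS411), with the rest between -0.48 and 0.27.

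LTBP2, named for the latent TGF-beta binding protein family, fell in RS411 from between 17.3 and 22.3 CPM to between 10.6 and 12.9 CPM. That call was lost without untreated B and without any 1 treated library. The LTBP2 difference was -2.53 ± 0.44 with SUPB15, where the value was 7.22, and -1.43 without that line. JCHAIN, the joining chain of immunoglobulins, differed by -1.49 ± 0.34. In the other direction JAG2 differed by 2.72 ± 0.70, with the other 6 lines between -1.12 and 1.10. PFKFB4, which controls glycolytic flux, had a log2 fold change of -0.58 in RS411 without a call and a mean of -3.59 elsewhere (difference 3.00 ± 0.72). NR4A1, an orphan nuclear receptor of the immediate early class, stayed at 3.99 to 5.51 CPM untreated and 5.76 to 6.45 CPM treated, and the other lines averaged -1.96 (difference 2.30 ± 0.54). TCP11L2 rose from between 1.91 and 2.42 CPM to between 5.604 and 7.30 CPM (difference 1.89 ± 0.35), and the pseudogene BCRP3 from between 2.02 and 2.93 CPM to between 6.25 and 8.02 CPM (difference 2.06 ± 0.49). RAB37, a small GTPase of secretion (1.70), and RP11-439L8.4 (1.71) had mean responses of -1.42 and -1.76 in the other lines and no call in RS411. FLT3 (0.81, adjusted p = 0.036) and TNFAIP3 (1.25, adjusted p = 0.00065) had higher responses in RS411 as well. For FLT3 the T-lineage lines CEM (0.764) and DND41 (0.746) stood level with RS411 (0.763). The other B-lineage lines lay between -0.636 and -0.326 for this gene. Leaving out 1 RS411 library ended the call for PFKFB4 in all 6 cases, for JAG2 in all but that of untreated A, for NR4A1 and RP11-439L8.4 without untreated B or C or L-asparaginase B or C, for BCRP3 without untreated A or C or L-asparaginase B or C, for JCHAIN without untreated A or L-asparaginase B or C, and for RAB37 without untreated C or L-asparaginase C.

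**Figure D5:**
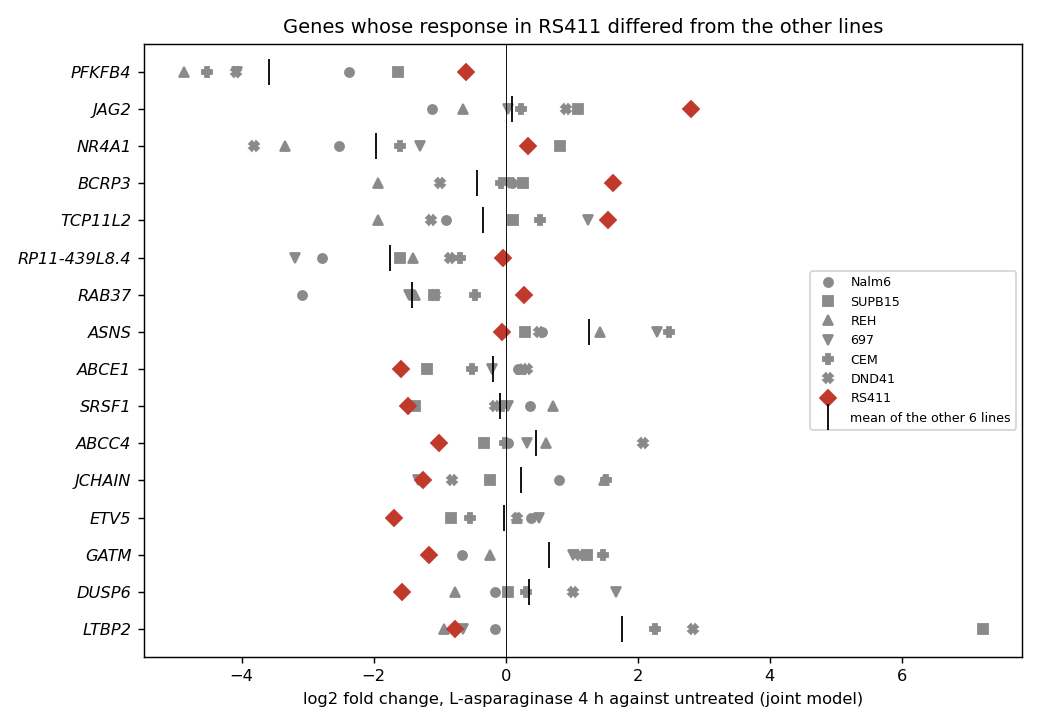
Log2 fold changes from the model of 42 libraries (x axis) for 16 genes whose response in RS411 differed from the mean of the other 6 lines (y axis), with RS411 as red diamonds, each other line as a grey symbol and their mean as a bar. RS411 lay below every other line for ETV5, DUSP6, ABCC4, ABCE1, SRSF1, GATM and ASNS and above every other line for JAG2, PFKFB4, BCRP3, TCP11L2, RP11-439L8.4 and RAB37.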

How the data were processed

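Total RNA was sequenced from 42 libraries of 7 leukaemia lines. The authors deposited raw read counts per gene, 1 table per line, and hg19 is the build per the submitters' processing notes. The sources used here do not give the aligner, the counter or the strand setting. The labels number the replicates, so columns of tables with letters, that of RS411 included, were assigned to groups only. Columns of the 697 table carry numbers and were assigned to single samples. The members and gene lists were chosen with earlier results of these data known.

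Counts of the 6 RS411 libraries, 26.69 M to 55.09 M each, were filtered with filterByExpr (minimum count 10), scaled by TMM and tested with edgeR 4.0.16 (quasi-likelihood, Benjamini-Hochberg adjusted p under 0.05) in R 4.3.3. The spread measured is that between these libraries. CPM values are not scaled by gene length. The difference from the other lines was 1 contrast in a model of all 14 groups. Samples with the same letter deviated together (correlations over 9088 genes of 0.37, 0.43 and 0.12 for A, B and C, with -0.41 to 0.27 between different letters), which met the rule for a pairing of over 0.1 in every pair. The authors' labels state no such pairing, and untreated C correlated more with treated B (0.24) than with treated C. In 26 rows the symbol had been turned into a date.

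Genes were named by rule: 12 stress genes, the 12 largest rises and falls with an average log2 CPM of at least 1, the 8 largest differences in each direction, and up to 4 called members per list with any called against most; some results that the rule covers are not reported here. Promoters came from RefSeq. Alternatives were RLE or upper quartile scaling, DESeq2 1.42.0, other filters, the letter as a block, left-out libraries and lines, the model of 42 libraries and library sizes without 6 small noncoding RNAs. Leaving out untreated A and L-asparaginase B together was added after seeing the data. The fit was tested on simulated data.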

Additional observations from a re-analysis of the deposited data

Results flagged for a closer look

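The response to L-asparaginase differed between RS411 and the mean of the other 6 lines, by a test of the difference itself (edgeR quasi-likelihood contrast, adjusted p under 0.05), for 16 named genes. The p-values of this test measure the spread between libraries of a group, not that between lines. The values are log2 responses in RS411 minus the mean of the other 6 lines. They were positive for PFKFB4 (3.00, adjusted p = 0.03), JAG2 (2.72, 0.046), NR4A1 (2.30, 0.025), BCRP3 (2.06, 0.028), TCP11L2 (1.89, 0.0024), RP11-439L8.4 (1.71, 0.028) and RAB37 (1.70, 0.011). They were negative for LTBP2 (-2.53, 0.0015), DUSP6 (-1.92, 3.6e-07), GATM (-1.81, 0.00031), ETV5 (-1.68, 1.6e-07), JCHAIN (-1.49, 0.022), ABCC4 (-1.47, 1.5e-07), ABCE1 (-1.40, 3.5e-06), SRSF1 (-1.40, 6.9e-06) and ASNS (-1.32, 0.03). Over 18 alternatives the call held in 18 for TCP11L2, LTBP2, DUSP6, GATM, ETV5, ABCC4, ABCE1 and SRSF1, in 16 for RAB37, in 11 for RP11-439L8.4 and JCHAIN, in 10 for NR4A1 and BCRP3, in 9 for PFKFB4 and ASNS and in 8 for JAG2. The range over these alternatives was 2.48 to 3.04 for JAG2 and -1.51 to -1.07 for ASNS. NR4A1, LTBP2 and JCHAIN were not set apart from every line. For NR4A1, SUPB15 had a value of 0.82 against 0.34 in RS411. LTBP2 stood at -0.94 in REH against -0.76 in RS411, and JCHAIN at -1.33 in 697 against -1.26 in RS411. The libraries of RS411 and of the other lines were compared in 1 model, and how the lines differ in depth or composition was not tested as a source of these differences.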

How the results depend on the processing

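The 2088 changed genes of RS411 (1239 higher, 849 lower) became 272 to 4526 (170 to 2627 higher, 102 to 1899 lower) when 1 library was left out. With the letter as a replicate block 2772 changed, 2036 of them shared, and with both A libraries also left out 6201 (3432 higher, 2769 lower). Without untreated A and L-asparaginase B together 3151 changed (1334 lower). RLE scaling, upper quartile scaling, DESeq2, no filter, a filter at 1 CPM, library sizes without 6 RNAs and the model of 42 libraries gave 2048 to 2868, with 1693 of the 2348 calls of that model shared. Upper quartile scaling gave 1037 higher and 1028 lower genes.

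The 211 genes that differed from the other lines (123 higher, 88 lower) became 65 to 213 (34 to 131 higher, 31 to 82 lower) without 1 RS411 library. The replicate block gave 469 (271 higher, 198 lower), leaving out the first untreated library of 5 lines 1034 (682 and 352), leaving out RS411 L-asparaginase B, SUPB15 L-asparaginase C and REH L-asparaginase A 76 (43 and 33), the 4 other B-lineage lines 338 (207 higher), leaving out SUPB15 385 (228 and 157), and no filter 160 in all and 56 lower.

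The difference in small noncoding RNA share ranged from 3.11 to 6.39 percentage points without 1 library.

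Among named genes 15 values changed sign, none of them called. Without 1 library ASNS ranged from -0.189 to 0.0606, ATF4 from -0.0072 to 0.272, KMT2A from -0.373 to 0.0731, AFF1 from -0.119 to 0.271 and RP11-439L8.4 from -0.246 to 0.174. Without untreated A and L-asparaginase B together ASNS was 0.0481, KMT2A 0.148 and RP11-439L8.4 0.0234. AFF1 was -0.0318 with upper quartile scaling and -0.00252 with the 1 CPM filter, and RP11-439L8.4 was 0.311 with the replicate block and no A libraries. Calls among named genes were lost for 65 without L-asparaginase C, 58 without B and 38 without A, for 35 and 37 without untreated B and C, for 0 without untreated A, for 21 in the model of 42 libraries and for 6 with upper quartile scaling. The replicate block ended the call of HOXA5 alone and added those of BIK, BBC3 and BCL2L11. The cause of these shifts was not tested. At 1 CPM the shallowest library holds 26.7 counts. Of the genes whose value changed sign, ASNS alone lay near that level. The part of depth in these shifts was not tested.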

Other observations

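Markers of other blood cells moved in single genes. Myeloid markers summed to 7.34 to 14.3 CPM untreated and 22.4 to 23.7 CPM treated. CSF1R, the receptor of macrophage colony-stimulating factor, measured 5.73, 8.67 and 11.1 CPM in untreated A, B and C and 21.4, 18.8 and 20 CPM in treated A, B and C (1.23, edgeR adjusted p = 0.0125). Megakaryocyte and platelet markers summed to 3.34 to 6.54 CPM untreated and 9.56 to 10.1 CPM treated, where GP9, a subunit of a platelet adhesion receptor, was called higher (0.94, adjusted p = 0.043). Neither call was stable over the 6 fits that left out 1 library. The part of other cells in these values was not tested.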
